A study of Homo sapiens with 6 samples.

Results

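The TNF superfamily comprises membrane-bound or secreted trimeric ligands and the receptors they bring together at the cell surface. Among the genes tested, 39 of 18417 belonged to it, chosen by gene symbol alone: symbols of the TNFSF and TNFRSF series plus TNF, LTA, LTB, LTBR, FAS, FASLG, CD40, CD27, CD70, NGFR and EDAR. Each gene was read from the brightest of its probe sets. The list held 14 ligands and 25 receptors. The annotation used here gave CD40LG no probe set, and 3 probe sets that name a family gene together with other genes were left out by the rule.

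The cells were H358, a human lung carcinoma line of the non-small cell kind, carried as a line stably expressing TwistER (3 arrays) and a line stably expressing green fluorescent protein, GFP (3 arrays). Proteins of the TwistER type fuse a Twist transcription factor to the hormone-binding domain of the estrogen receptor and become active when 4-hydroxytamoxifen (4OHT) binds. Both lines received 100 nM 4OHT for 12 days, and the titles place the TwistER arrays after, and the GFP arrays before, an epithelial-mesenchymal transition (EMT). The labels do not say how many clones each line came from, and no TwistER cells without 4OHT were analysed here, so the effect of active TwistER and other differences between the 2 lines cannot be told apart.

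Some receptors of this superfamily carry a death domain in the cytoplasm. When a ligand clusters them, they recruit the adaptors FADD or TRADD and can start caspase-8-dependent apoptosis. Most others bind TRAF adaptors and switch on NF-kB and stress kinases, and decoy receptors bind ligand without a complete signalling domain. In epithelial tumour cells the best studied pair is TRAIL (TNFSF10) with its death receptors DR4 (TNFRSF10A) and DR5 (TNFRSF10B).

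The 6 epithelial genes set as markers of this line had means of 5.09 to 8.79 in TwistER cells and 8.69 to 12.1 in GFP cells. Of these, CDH1, EPCAM, KRT19 and KRT8 fell (66.7%, against 8.83% of all genes). KRT18 had a difference of -0.98 ± 0.33 SE that did not pass (limma adjusted p = 0.114), although its groups did not overlap. KRT7 (-0.17) overlapped and did not pass. Without GFP replicate 1, KRT18 (-1.40, limma adjusted p = 0.0019) and KRT7 (-0.41, 0.0352) fell as well. Immune and endothelial markers had an average log2 level of 4.21 to 4.30 over 18 genes in TwistER arrays and 4.05 to 4.11 in GFP arrays. Of these 18, KDR and PECAM1 rose (11.1%, against 8.83% of all genes called), and 9 were in the lower quartile of all genes in both lines. KDR and PECAM1 are endothelial genes, while the endothelial markers CDH5 (-0.06), VWF (0.05), TEK (0.07) and CLDN5 (0.20) overlapped between the lines. The immune markers CD68 (0.25) and CSF1R (0.17) were higher in every TwistER array than in any GFP array and did not pass. CD79A (-0.29) was lower in every TwistER array than in any GFP array and did not pass either. TwistER arrays lay wholly above GFP arrays in 4 of the 18 and wholly below in 1, against 13.9% and 14.5% of all genes. Differences were positive in 13 of the 18 markers and negative in 5, with a median of 0.14, against 0.01 over all genes. The pan-leukocyte marker PTPRC had a difference of 0.30 ± 0.17 SE that did not pass (limma adjusted p = 0.377), and the B cell gene CD79A one of -0.29 ± 0.12 (0.201). Without GFP replicate 1, PTPRC rose by 0.48 (limma adjusted p = 0.0407). Of 8 fibroblast markers, COL3A1, PDGFRA and COL1A1 rose and LUM fell, where 8.83% of all genes were called. The other 4, THY1 (-0.10), PDGFRB (0.06), COL1A2 (-0.03) and DCN (0.01), overlapped between the lines. Averages over the 8 were 5.02 to 5.08 in TwistER arrays and 4.75 to 4.89 in GFP arrays. The median difference of these markers was 0.03. The calls of KRT8, PECAM1 and COL1A1 did not hold in every fit with 1 array left out (highest limma adjusted p of 0.0739, 0.0765 and 0.142). The part of other cell types in the results below was not tested. One library stood apart: GFP replicate 1 correlated with the other GFP arrays at r = 0.982 to 0.983, against 0.996 between those. GFP replicates 2 and 3 correlated with the TwistER arrays at 0.979 to 0.980, and GFP replicate 1 with the TwistER arrays at 0.968 to 0.972.

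The ligand gene TNFSF10 rose in TwistER cells, its death receptor gene TNFRSF10A fell, and the co-stimulatory receptor gene CD40 rose. The other 36 family genes did not pass the test. Of the 39, 33 (84.6%) differed by less than 0.25 on the log2 scale, against 68.8% of all genes. In the whole table, 8.83% of genes were called, and 3 of the 39 (7.69%) is close to that share. By direction, 4.72% of all genes rose and 4.11% fell, against 2 and 1 of the 39. The number of calls among family genes is thus near the background. All values are log2 expression by RMA (robust multi-array average), and all differences are TwistER minus GFP. In cell lysates, fewer expressing cells and less RNA per cell cannot be told apart.

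**Figure D1:**
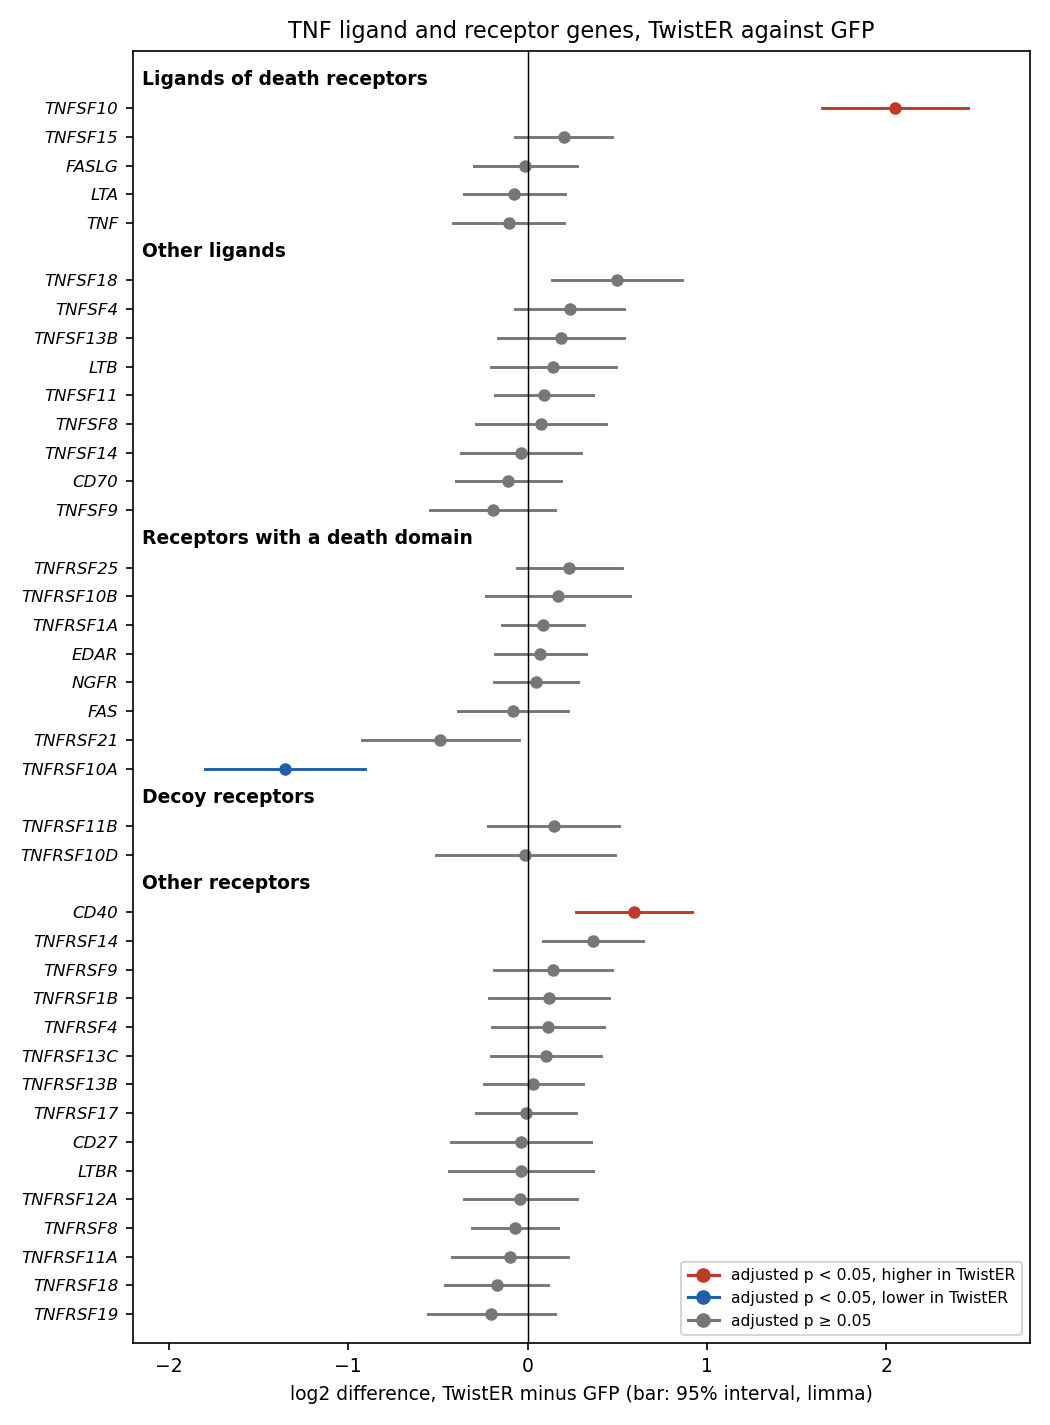
Log2 difference between TwistER and GFP (horizontal axis, 3 arrays each) for the 39 family genes, grouped by role, with the 95% interval from limma as a bar. TNFSF10 (2.05) and CD40 (0.59) lie to the right of 0 and TNFRSF10A (-1.35) to the left, while the other 36 genes, in grey, did not pass an adjusted p of 0.05.

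TNFSF10 encodes TRAIL, a ligand that can kill many tumour cells through DR4 and DR5 and is known to be induced by interferons. The gene lies on chromosome 3. The 250 bases before its start in RefSeq (GRCh38.p14, chr3:172523431-172523680, minus strand) are shown because TNFSF10 is the family gene with the widest difference and because Twist factors bind E-boxes, whose letters are CANNTG, the same on both strands. Capitals mark the only match in this stretch, CAGTTG, whose first base lies 115 bases before the start.
TNFSF10 promoter: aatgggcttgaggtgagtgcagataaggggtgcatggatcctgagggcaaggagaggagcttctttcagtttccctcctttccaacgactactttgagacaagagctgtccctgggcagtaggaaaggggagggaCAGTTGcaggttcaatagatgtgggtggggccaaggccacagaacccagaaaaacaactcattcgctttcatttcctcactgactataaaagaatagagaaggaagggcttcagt

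Such a match is common. Of 35116 RefSeq windows reaching 250 bases before and 50 bases after a gene's start, 68.7% held at least 1. Windows matched 26 of the 39 family genes, 1 window per gene, and 25 of these (96.2%) held the letters, TNFSF9 being the exception. CD40 had no window. The 35116 windows were not limited to 1 per gene or to protein-coding genes, while the members are all protein-coding, so the shares may not be comparable. Median GC content was 57.5% in these 26 windows and 58.67% in all. The match is a description of letters and says nothing about binding.

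TNFSF10 read 6.68, 6.98 and 6.85 in TwistER arrays, against 5.08, 4.41 and 4.87 in GFP arrays. The lowest TwistER array was well above the highest GFP array. TNFSF10 was 4.14-fold higher in TwistER (difference 2.05 ± 0.18 SE, 95% interval 1.64 to 2.45, limma adjusted p = 0.000231). Leaving out each array in turn gave differences of 1.86 to 2.19, with a highest adjusted p of 0.00313 in limma.

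TNFRSF10A, the gene of DR4, moved the other way. It read 5.29, 4.97 and 5.20 in TwistER arrays, against 6.05, 6.69 and 6.77 in GFP arrays. The groups did not overlap, and GFP replicate 1 was the GFP array nearest to the TwistER arrays. The gene fell 2.55-fold (difference -1.35 ± 0.20 SE, 95% interval -1.80 to -0.91, limma adjusted p = 0.00333). Without each array in turn the difference was -1.58 to -1.22 and the highest limma adjusted p was 0.0225.

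The 3 other TRAIL-binding receptors with a probe set of their own showed no difference past the test. The decoy receptor gene TNFRSF10C shared its probe set with another gene and was not tested. TNFRSF10B, which encodes the second death receptor DR5, read 7.61, 7.79 and 7.62 in TwistER arrays and 7.11, 7.81 and 7.58 in GFP arrays. These values overlapped, with a difference of 0.17 ± 0.18 SE (95% interval -0.23 to 0.57, limma adjusted p = 0.665). The interval lies wholly above that of TNFRSF10A, although the difference between the 2 genes was not itself tested.

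TNFRSF10D encodes DcR2, a decoy with a truncated death domain. It read 8.94, 8.96 and 9.04 in TwistER arrays, against 8.43, 9.34 and 9.19 in GFP arrays. The TwistER values lay between GFP replicate 1 below and GFP replicates 2 and 3 above. Its difference was -0.01 ± 0.22 SE over all arrays (limma adjusted p = 0.985). Dropping GFP replicate 1 gave -0.29, which did not pass either (limma adjusted p = 0.0940).

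TNFRSF11B encodes osteoprotegerin, a secreted decoy for RANKL that also binds TRAIL. It read 4.40, 4.53 and 4.38 in TwistER arrays, against 4.46, 3.94 and 4.48 in GFP arrays. GFP replicate 2 was the only low value, and the difference of 0.15 ± 0.16 SE did not pass (limma adjusted p = 0.683). TNFRSF10A, TNFRSF10B, TNFRSF10D and TNFRSF11B all lie on chromosome 8, and no sequence of them is shown.

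**Figure D2:**
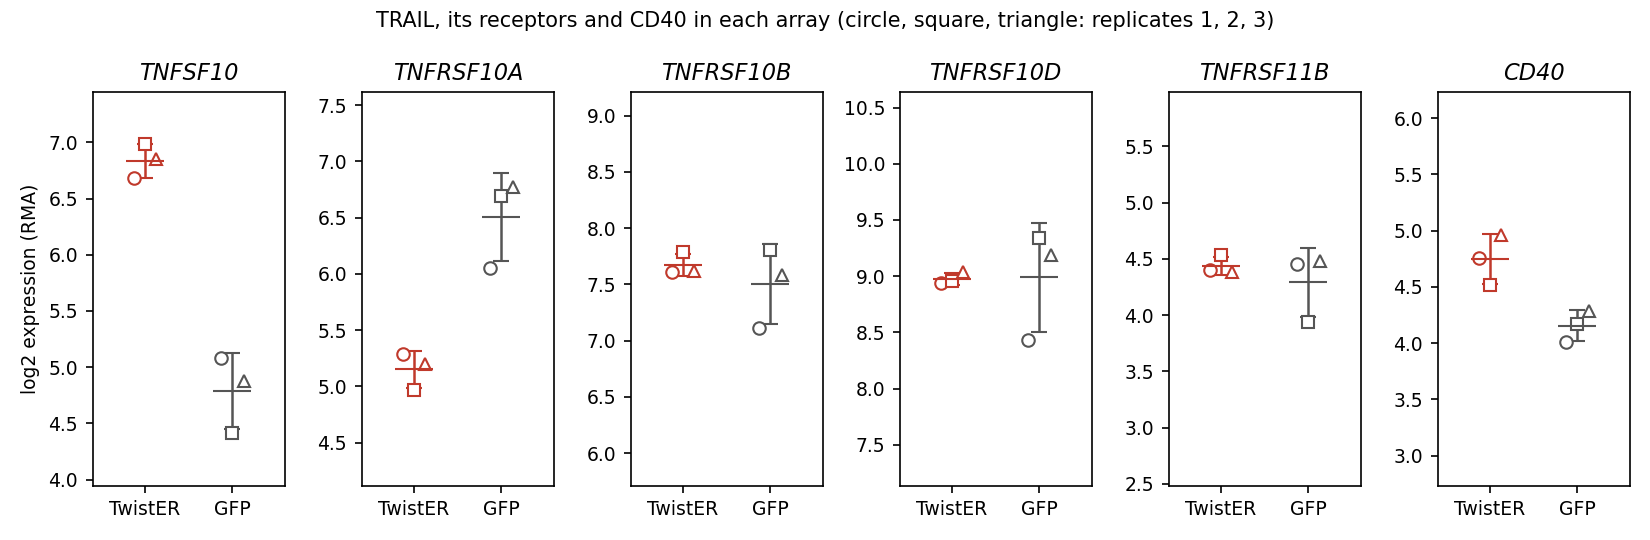
Log2 expression of TNFSF10, the TRAIL-binding receptor genes and CD40 in each TwistER and GFP array, with the mean and SD of 3 arrays as lines, each panel spanning the same log2 range. TNFSF10 and CD40 are higher and TNFRSF10A lower in every TwistER array than in any GFP array, while the other 3 genes overlap. GFP replicate 1 (circle) is the lowest GFP array for 3 of the 4 TRAIL-binding receptors and for CD40.

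CD40 is a receptor of antigen-presenting cells that is also found on many carcinomas, where it signals through TRAF adaptors. It read 4.76, 4.52 and 4.96 in TwistER arrays, against 4.01, 4.17 and 4.28 in GFP arrays. The groups did not overlap, and the GFP mean of 4.15 was in the lower quartile of all genes, where background light compresses differences. CD40 rose 1.51-fold (difference 0.59 ± 0.14 SE, limma adjusted p = 0.0360). The call did not hold without TwistER replicate 1 (adjusted p = 0.124), TwistER replicate 3 (0.134), GFP replicate 2 (0.0980) or GFP replicate 3 (0.0572), with limma differences of 0.49 to 0.71 over all 6 omissions.

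Among the other 4 ligands of death receptors, none passed the test. TNF, the founding cytokine of the family, had a difference of -0.11 ± 0.14 SE, and LTA, lymphotoxin alpha, one of -0.07 ± 0.12. FASLG, the ligand of FAS, differed by -0.01 ± 0.13, and TNFSF15, the ligand of the death receptor TNFRSF25, by 0.20 ± 0.12. All 4 overlapped between the lines. TNF was covered by 3 probe sets with identical values, which are a single measurement. The 3 probe sets of LTA all read slightly lower in TwistER, by -0.07 to -0.21.

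The 9 remaining ligands serve mainly in co-stimulation and in lymphoid and bone biology. Of these, 0 rose and 0 fell, and 1 had an unadjusted limma p under 0.05, against 21.6% of all genes. That gene was TNFSF18, the ligand of the co-stimulatory receptor GITR. It read 3.43, 3.16 and 3.07 in TwistER arrays, against 2.92, 2.81 and 2.43 in GFP arrays. Its groups did not overlap at these low levels, and the difference of 0.50 ± 0.16 SE did not pass (limma adjusted p = 0.0999). TNFSF4, the OX40 ligand, also did not overlap (0.23 ± 0.13 SE), with 3.26, 3.70 and 3.37 in TwistER arrays and 3.23, 3.18 and 3.21 in GFP arrays. The others were TNFSF13B (BAFF, a B cell survival factor) at 0.19, LTB at 0.14 (-0.04 on its other distinct probe set), TNFSF11 (RANKL, the osteoclast factor) at 0.09, TNFSF8 (the CD30 ligand) at 0.08, TNFSF14 (LIGHT) at -0.04, CD70 (the CD27 ligand) at -0.11 and TNFSF9 (the 4-1BB ligand) at -0.19. Their limma adjusted p was between 0.549 and 0.928, and 5 of the 9 ligands had means in the lower quartile of all genes in both lines.

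Of the 8 receptors with a death domain, TNFRSF10A was the 1 that fell and 0 rose (12.5% called, against 8.83% of all genes). TNFRSF21, the gene of death receptor 6, came closest to joining it. It read 7.87, 7.95 and 7.81 in TwistER arrays, against 7.89, 8.61 and 8.59 in GFP arrays. GFP replicate 1 sat among the TwistER values while the other GFP arrays were clearly higher. The difference was -0.49 ± 0.19 SE with all arrays (limma adjusted p = 0.181) and -0.72 without GFP replicate 1, where the gene fell (limma adjusted p = 0.00248).

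The classical death receptors of FASLG and TNF showed no difference past the test. FAS, the receptor of FASLG, read 6.06, 6.08 and 6.03 in TwistER arrays, against 6.40, 5.98 and 6.03 in GFP arrays. Its difference was -0.08, with a 95% interval of -0.39 to 0.23. TNFRSF1A, the main TNF receptor of non-immune cells, read 7.72, 7.76 and 7.78 in TwistER arrays, against 7.65, 7.63 and 7.72 in GFP arrays. The small spread of TNFRSF1A gave the narrowest interval of the 39, 0.09 with bounds of -0.14 and 0.31, which excludes a 2-fold array difference. The 95% intervals of the other members also exclude one, except those of TNFSF10 and TNFRSF10A, which reach beyond it. In dim genes, background compresses the array difference.

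TNFRSF25, the receptor of TNFSF15, was slightly higher in every TwistER array (6.69, 6.91 and 6.81, against 6.36, 6.67 and 6.68 in GFP arrays). Its difference of 0.23 ± 0.13 SE did not pass in limma (adjusted p = 0.359). NGFR, the low-affinity neurotrophin receptor and sometime marker of neural crest-like tumour cells, differed by 0.05 ± 0.10 SE, and EDAR, the ectodysplasin receptor of skin appendages, by 0.07 ± 0.11. Both overlapped between the lines.

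The 15 receptors outside the death domain and decoy classes held 1 rise, that of CD40, and 0 falls (6.67% called, against 8.83% of all genes). TNFRSF14 (HVEM), which binds LIGHT and the inhibitory receptor BTLA, was next in size. It read 4.92, 4.71 and 5.03 in TwistER arrays, against 4.52, 4.43 and 4.61 in GFP arrays. The groups did not overlap, but the difference of 0.37 ± 0.12 SE did not pass (limma adjusted p = 0.115).

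Other receptors known from epithelial cells overlapped. TNFRSF12A (Fn14), the TWEAK receptor, read 7.59, 7.73 and 7.86 in TwistER arrays, against 7.54, 7.86 and 7.91 in GFP arrays, with a difference of -0.04 ± 0.14 SE. LTBR, the lymphotoxin beta receptor of non-lymphoid cells, read 6.25, 6.40 and 6.33 in TwistER arrays, against a wider 6.03, 6.32 and 6.74 in GFP arrays. Its difference was -0.04 ± 0.18 SE. TNFRSF19, an orphan receptor known from progenitor cells, had the lowest difference of the 15 at -0.20 ± 0.16 SE (limma adjusted p = 0.541). TNFRSF1B, the second TNF receptor, differed by 0.12 ± 0.15 SE.

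The receptors of lymphocytes and osteoclasts did not pass either. Differences were 0.11 for TNFRSF4 (OX40), 0.14 for TNFRSF9 (4-1BB), -0.17 for TNFRSF18 (GITR), -0.07 for TNFRSF8 (CD30) and -0.04 for CD27. For the BAFF receptors they were 0.03 (TNFRSF13B), 0.10 (TNFRSF13C) and -0.01 (TNFRSF17), and for RANK (TNFRSF11A) -0.10. All 9 overlapped between the lines, with limma adjusted p between 0.512 and 0.981. TNFRSF17, a plasma cell receptor, had means of 2.17 in TwistER and 2.18 in GFP, within the lower quartile of all genes, so these probes give little information on its level.

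Over the 39 genes the median difference was 0.05, against 0.01 over all 18417 genes, and the median size of a difference was 0.11, against 0.15. Groups did not overlap in 7 of the 39 (17.9%), against 28.4% of all genes. In 6 of these the TwistER arrays were above (13.9% of all genes) and in 1 below (14.5%). TNFSF10 and TNFRSF10A were the 2 members with a difference of at least 1 in size (5.13%), against 2.78% of all genes. The one ligand and receptor pair with both genes past the test, TNFSF10 and TNFRSF10A, had opposite signs.

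GFP replicate 1 touched several receptors. It deviated by at least 0.5 from the mean of the other GFP arrays in 6 of the 39 genes (15.4%), against 17.7% of all genes. It was lower for TNFRSF10D (-0.83), TNFRSF21 (-0.71), TNFRSF10A (-0.68), TNFRSF10B (-0.59) and LTBR (-0.50) and higher for TNFSF8 (0.52). Without it, 3 members rose (TNFSF10, CD40 and TNFSF18) and 2 fell (TNFRSF10A and TNFRSF21), where limma called 15.1% of all genes. TNFSF18 then had a difference of 0.60 (limma adjusted p = 0.0415).

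**Figure D3:**
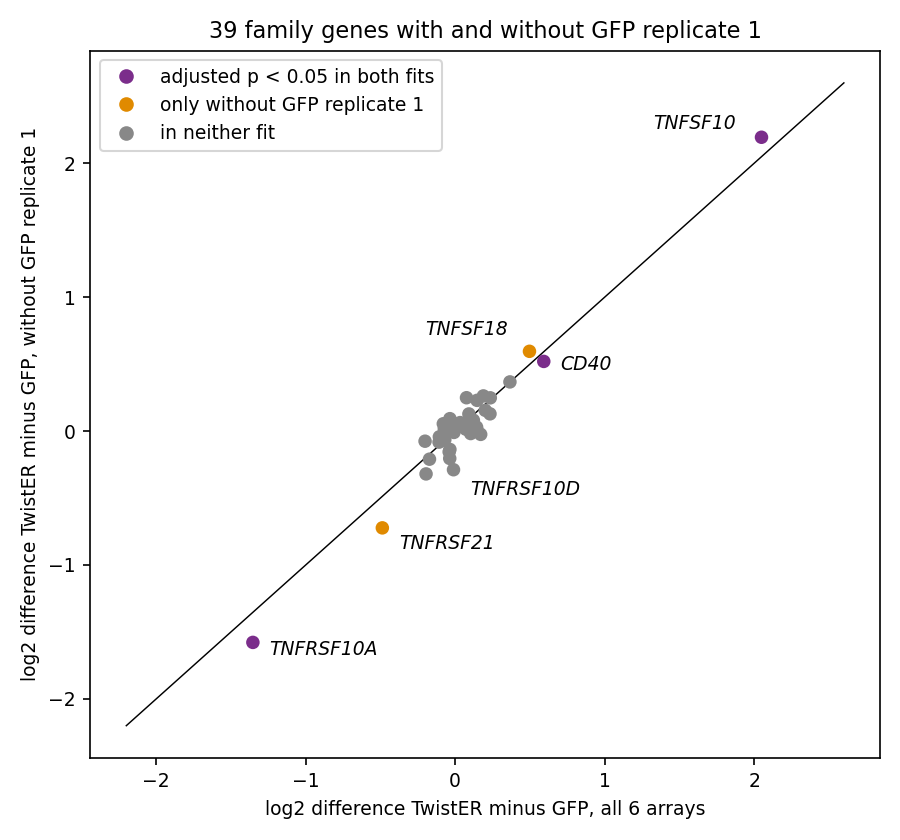
Log2 difference TwistER minus GFP of each family gene with all 6 arrays (horizontal) and without GFP replicate 1 (vertical), with the line of equality. TNFSF10, CD40 and TNFRSF10A passed an adjusted p of 0.05 in both fits, TNFSF18 (0.50 and 0.60) and TNFRSF21 (-0.49 and -0.72) without that array alone.

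Directly below these receptors stand adaptors, ubiquitin enzymes and caspases. Of 25 measured genes of this kind, 2 rose and 1 fell (12.0%, against 8.83% of all genes), with a median difference of 0.07. TAB3, which links ubiquitin chains to the kinase TAK1, fell 1.81-fold (-0.86 ± 0.11 SE, limma adjusted p = 0.00154), with 7.85, 7.92 and 8.03 in TwistER arrays and 8.71, 8.83 and 8.82 in GFP arrays. TRAF5, an adaptor of CD40 and related receptors, rose 1.68-fold (0.75 ± 0.13 SE, limma adjusted p = 0.00887), with 5.36, 5.26 and 5.02 in TwistER arrays and 4.57, 4.30 and 4.51 in GFP arrays. The TRAF5 call was lost without TwistER replicate 2 (limma adjusted p = 0.0516).

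CYLD, a deubiquitinase that restrains NF-kB, rose 1.53-fold (0.61 ± 0.14 SE, limma adjusted p = 0.0331). Its call held without GFP replicate 1 and failed in the other 5 omissions (highest limma adjusted p = 0.129) and with median centring. CFLAR, whose product c-FLIP blocks caspase-8 at death receptors, read 7.78, 8.19 and 7.77 in TwistER arrays, against 7.80, 6.92 and 7.05 in GFP arrays. GFP replicate 1 was again the array that overlapped. The difference of 0.66 ± 0.23 SE did not pass with all arrays (limma adjusted p = 0.135), and without GFP replicate 1 CFLAR rose by 0.93 (limma adjusted p = 0.00628). Averaging its probe sets also gave a rise, of 0.56 (limma adjusted p = 0.0434). The death-receptor adaptor FADD (0.10 ± 0.11 SE), TRADD (0.10 ± 0.13) and the initiator caspases CASP8 (-0.19 ± 0.11) and CASP10 (0.24 ± 0.15) did not pass.

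The 13 genes of the NF-kB subunits, their IkB inhibitors and the IKK kinases had a median difference of -0.06. Of these, 0 rose and 1 fell (7.69% called, against 8.83% of all genes). That gene was CHUK, which encodes IKK-alpha, the kinase of the non-canonical branch that CD40 and LTBR use. It read 7.12, 7.01 and 6.61 in TwistER arrays, against 7.95, 7.54 and 7.53 in GFP arrays. CHUK fell 1.69-fold (-0.76 ± 0.17 SE, limma adjusted p = 0.0300). As for CYLD, the call held without GFP replicate 1 and failed in the other 5 omissions (highest limma adjusted p = 0.104). The kinase gene IKBKB (-0.30 ± 0.14 SE) and the subunits NFKB1 (-0.20 ± 0.11) and NFKB2 (0.19 ± 0.10) did not pass. Without GFP replicate 1, CHUK and IKBKB fell.

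Genes known to be induced by TNF through NF-kB did not move together. Of 22 measured, 3 rose, 1 fell and 18 did not pass (18.2% called, against 8.83% of all genes), with a median of -0.10. The members that rose were PTGS2, the inducible cyclooxygenase (3.51), TNFAIP6, a hyaluronan-binding protein (3.42), and the chemokine CXCL10 (1.30). The GFP mean of TNFAIP6 was 2.95, in the lower quartile of all genes, where differences are compressed. TNFAIP8, an anti-apoptotic gene named for its induction by TNF, fell 1.77-fold (-0.82 ± 0.14 SE, limma adjusted p = 0.00671). Direct feedback targets did not pass, with -0.11 ± 0.13 SE for NFKBIA and -0.12 ± 0.11 SE for TNFAIP3. Without GFP replicate 1, LIF and PLAU also fell.

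Of 15 genes of mitochondrial and executioner apoptosis, 1 rose and 2 fell (20.0% called, against 8.83% of all genes), with a median of -0.07. The executioner caspase CASP6 fell 1.94-fold (-0.96 ± 0.14 SE) and BCL2L11, the pro-apoptotic BH3 protein BIM, fell 1.61-fold (-0.68 ± 0.11). APAF1, the scaffold of the apoptosome, rose 1.63-fold (0.70 ± 0.13 SE). Their limma adjusted p was 0.00304, 0.00730 and 0.0102. The APAF1 call was lost without TwistER replicate 2 (adjusted p = 0.0570). Cytochrome c (CYCS) had a difference of -0.49 ± 0.18 SE that did not pass.

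Proteases and regulators that release ligands and receptors from the membrane held 0 calls among 8 genes in limma, with 3 at an unadjusted p under 0.05, where 21.6% of all genes lie. FURIN, a proprotein convertase, was lowest at -0.71 ± 0.21 SE (limma adjusted p = 0.0807). Its mean was 5.68 in TwistER arrays, against 5.87, 6.69 and 6.60 in GFP arrays, replicate 1 being the low one. Without that array FURIN (-0.97) and RHBDF2, a partner of the TNF sheddase, fell. The sheddase gene ADAM17 had a difference of -0.32 ± 0.10 SE (limma adjusted p = 0.103) and its inhibitor TIMP3 one of 0.32 ± 0.10 (0.105).

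Further superfamily genes with symbols outside the TNFSF and TNFRSF series gave 0 calls of 3 in limma and 0 at an unadjusted p under 0.05: EDA (0.03), EDA2R (-0.18) and RELT (0.01). Of 6 measured neurotrophins and co-receptors of NGFR, 0 were called in limma and 0 had an unadjusted p under 0.05, with RTN4R (0.20), NTRK2 (0.19), BDNF (0.19) and NTRK3 (0.18) leading.

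**Figure D4:**
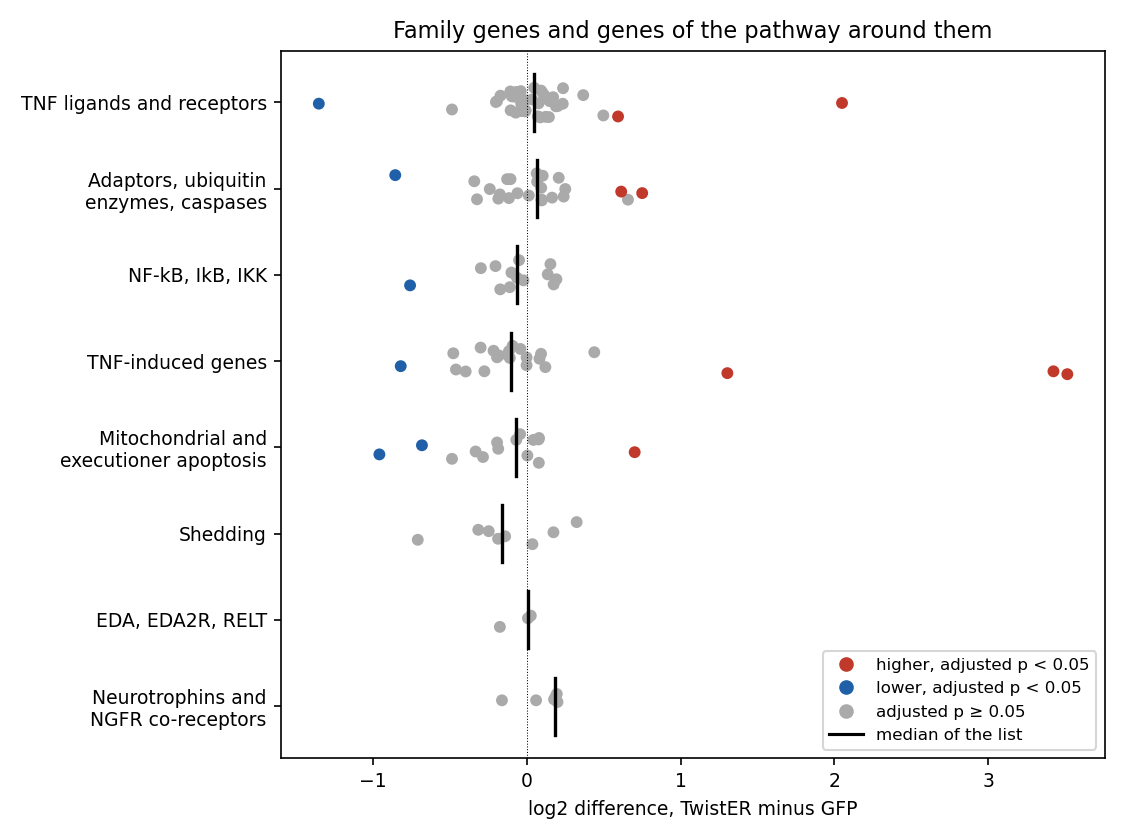
Log2 difference TwistER minus GFP (horizontal) of the 39 family genes and of the genes of each list around them, 1 point per gene with vertical scatter for legibility and the list's median as a line. Medians lie between -0.16 and 0.18, and genes past an adjusted p of 0.05 (red higher, blue lower in TwistER) are few in each list.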

How the data were processed

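Biotin-labelled RNA of 6 H358 cultures was hybridised to Affymetrix arrays, as the labels' protocols describe. Per the submitters' processing notes the authors ran RMA, and the deposited table holds the resulting log2 values by probe set. The RMA version and settings were not given in those notes. RMA equalises distributions across arrays, and at low brightness the background light shrinks differences. Closely related family genes can share probes. Precision is limited by the number of arrays.

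Of 33297 probe sets, 19460 had 1 gene symbol in the platform annotation supplied, which gave 18417 genes by the brightest probe set over all arrays, with no filter. RefSeq identifiers matched all 39 members. Groups came from the sample labels, and 0 columns were unassigned. Titles call samples biological replicates and say no more, so p-values cover only the spread among these cultures, which may be technical.

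The test was limma (version 3.58.1, R 4.3.3, lmFit, eBayes, 2-sided, no covariates), Benjamini-Hochberg adjusted over all 18417 genes, threshold 0.05. "Rose" and "fell" mean past that threshold. The fit was also run on simulated independent normal values, which do not reproduce an array that stands apart, such as GFP replicate 1. Tables and plots used Python 3.11.15, pandas 2.3.3 and matplotlib 3.10.9. Members, lists and alternatives were chosen with earlier results of these data known. Array values are given for members past the threshold, for their partners, and for others singled out after their values were seen. Up to 4 genes of each list with the largest difference are named, plus markers, adaptors, caspases and feedback genes chosen after their values were seen.

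Alternatives were median centring, cyclic loess, a brightness filter at the 25 percentile, probe sets averaged per gene, a trended robust variance, a block for the replicate number, each array left out, and a threshold of 0.01.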

Additional observations from a re-analysis of the deposited data

Results flagged for a closer look

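A probe set outside the comparisons, annotated to RTEL1, TNFRSF6B and their read-through, was higher in every TwistER array than in any GFP array. It read 5.06, 5.10 and 5.10 in TwistER arrays, against 4.84, 5.02 and 4.93 in GFP arrays, a difference of 0.15 on the log2 scale that was not tested. Among all genes tested, TwistER arrays lay wholly above GFP arrays in 13.9%. The 2 other probe sets that name a family gene beside others overlapped between the lines, with differences of 0.06 (TNFSF12 and TNFSF13) and 0.04 (TNFRSF10C). TNFRSF6B encodes DcR3, a soluble decoy for FASLG, LIGHT and TNFSF15, and this probe set does not separate it from the helicase gene RTEL1.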

How the results depend on the processing

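The calls of TNFSF10 and TNFRSF10A held under every alternative run. CD40 kept its call under each alternative that used all 6 arrays, except the threshold of 0.01, and lost it in 4 of the 6 omissions given above. Leaving out each array in turn gave 831 to 2773 changed genes (1627 with all arrays), 2 to 5 changed family genes (3), 1 to 4 adaptors (3), 0 to 2 NF-kB genes (1), 0 to 2 shedding genes (0) and 1 to 3 immune and endothelial markers (2). The highest of these were reached without GFP replicate 1, and the cause was not tested. At a threshold of 0.01 there were 807 changed genes, 0 NF-kB genes and 1 immune or endothelial marker, and with probe sets averaged per gene there was also 1 such marker. Median centring called 1 shedding gene, FURIN. The replicate numbers were not taken as pairs, since the titles state no pairing. Deviations from the group means correlated at 0.139, 0.015 and 0.157 in same-numbered arrays, against -0.16 to 0.04 in differently numbered ones. Each TwistER array correlated best with the GFP array of its own number, while GFP replicate 2 correlated best with TwistER replicate 3 (0.04). Whether the numbers mark pairs was not tested. With the number as a block, limma called 1592 genes, 4 family genes (TNFSF18 in addition, adjusted p = 0.0496) and 1 shedding gene, FURIN. No alternative reversed the direction of a called family gene. Dim genes such as TNFSF18 and TNFRSF17 lie where background limits what a difference can show.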
